A study of Mus musculus with 8 samples.

Results

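The 8 genes described here serve cholesterol synthesis and fatty acid desaturation: Hmgcs1, Idi1, Fdps, Fdft1 and Sqle, enzymes of the sterol pathway, Insig1, its feedback regulator, and the stearoyl-CoA desaturases Scd1 and Scd2. They were taken as every probe that carries 1 of these symbols, which gave 11 probes of 24613 on the array and 8 of 15967 named genes. Scd2 was chosen by the difference of its amsacrine responses between p53-null and wild-type cells. Scd2 values that use the amsacrine arrays of either genotype, or the controls of those responses, are therefore descriptions with no test.

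Gene expression was measured on 8 single-colour Illumina beadchip arrays of spleen cells from C57BL/6 mice aged 5 to 6 weeks, each suspension being a pool from 4 mice. The groups were Δ122p53 cells with amsacrine, p53-null (p53-/-) cells with amsacrine, p53-null cells irradiated with 4 Gy of gamma rays, wild-type (WT) cells with amsacrine, and the controls of Δ122p53, p53-null and WT cells. The p53-null control had 2 arrays and each other group had 1. Amsacrine, a topoisomerase II poison, was given at 1 µg/mL for 5 hours, and its controls received a 30% ethanol carrier, while irradiation controls were left untreated. The labels do not say which kind of control each control array was, so whether treated cells and their controls shared the carrier is not known. The sources used here give no time after irradiation, and only p53-null cells were irradiated. Δ122p53 mice make a p53 protein without its N-terminal part and serve as a model of a human p53 isoform. All cells were whole spleen suspensions cultured in medium with foetal calf serum.

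Cholesterol is built from acetyl-CoA through the mevalonate pathway. When membrane sterol is low, SREBP2, encoded by Srebf2, is escorted by SCAP to the Golgi, cut by the proteases encoded by Mbtps1 and Mbtps2, and switches on genes of the pathway by binding sterol regulatory elements. Insig proteins hold SCAP in the endoplasmic reticulum when sterol is plentiful, and INSIG1 is itself an SREBP target. The desaturases put a double bond into saturated fatty acids, with SREBP1 and the liver X receptors among the regulators of Scd1.

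Promoter sequences are shown for 3 genes whose levels were highest on the irradiated array. Promoters (250 bases before to 50 bases after the annotated start) came from a set of RefSeq promoters on GRCm38.p6. The set at hand covered 3 of the 8 genes, Hmgcs1, Insig1 and Idi1, and lacked sequences for the others. They were searched on both strands for TCACNCCAC (a sterol regulatory element), CCAAT and GGGCGG (a GC box). None of these motifs contains another. The element was present in 1.24% of 32851 mouse promoters, CCAAT in 37.4% and the GC box in 35.7%. Capitals mark the sterol regulatory element and CCAAT (or ATTGG, its other strand). Hmgcs1 lies at chr13:119690101-119690400 (plus strand), Insig1 at chr5:28071162-28071461 (plus strand), and Lss, which makes lanosterol, at chr10:76531355-76531654 (plus strand).
Hmgcs1: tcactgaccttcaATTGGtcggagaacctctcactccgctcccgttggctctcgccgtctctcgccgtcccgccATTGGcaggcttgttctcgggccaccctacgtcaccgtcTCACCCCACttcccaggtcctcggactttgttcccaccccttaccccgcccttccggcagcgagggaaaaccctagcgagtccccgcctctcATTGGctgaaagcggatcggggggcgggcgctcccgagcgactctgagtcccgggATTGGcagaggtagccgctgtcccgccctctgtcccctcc
Insig1: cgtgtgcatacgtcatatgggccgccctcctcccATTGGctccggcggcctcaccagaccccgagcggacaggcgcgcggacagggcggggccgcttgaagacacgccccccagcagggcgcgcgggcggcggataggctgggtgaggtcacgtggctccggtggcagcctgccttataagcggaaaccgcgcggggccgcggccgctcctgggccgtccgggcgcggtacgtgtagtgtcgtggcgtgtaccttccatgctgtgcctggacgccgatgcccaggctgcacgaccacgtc
Lss: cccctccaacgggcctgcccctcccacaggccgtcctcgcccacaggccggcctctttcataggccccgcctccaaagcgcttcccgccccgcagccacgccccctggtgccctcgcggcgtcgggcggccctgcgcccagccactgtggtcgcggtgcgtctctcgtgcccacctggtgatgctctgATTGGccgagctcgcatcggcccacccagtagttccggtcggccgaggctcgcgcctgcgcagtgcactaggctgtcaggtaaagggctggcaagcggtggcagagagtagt
The Hmgcs1 window held 1 sterol regulatory element, TCACCCCAC, starting 137 bases before the annotated start, and 4 CCAAT boxes. Each of the Insig1 and Lss windows held 1 CCAAT box and no match to the 9-letter element. All 3 member promoters had at least 1 CCAAT and 1 GC box, and of 17 promoters of 14 other sterol enzyme genes 13 held CCAAT, 13 held a GC box and 0 held the element.

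Levels are given as log2 of the background-corrected, quantile-normalized intensity, and a probe was called detected when its detection p was under 0.01. Of the 8 genes, 5 were detected on all 8 arrays (Scd2, Scd1, Hmgcs1, Sqle, Fdps), Insig1 on the irradiated array alone, and Idi1 and Fdft1 on none. This left 6 of the 8 genes among the 7456 genes tested. Idi1, isopentenyl diphosphate isomerase, had a highest level of 5.54, on the irradiated array, and a smallest detection p of 0.0170. Fdft1, squalene synthase, did not exceed 4.63. Spleen lymphocyte markers were present, with 5 to 7 of 7 tested T cell genes and 4 to 6 of 6 tested B cell genes detected on each array, and the level of Trp53 itself was not analysed here. Arrays had 7710 to 8633 detected probes (31.3% to 35.1%), and precision is limited by how few arrays there are. Nothing in the labels says that the 2 p53-null controls came from separate pools or cultures, so the spread behind the p-values of the responses is that of this pair and may be technical. In the genotype comparisons below, that spread also holds differences in response between genotypes. In whole spleen suspensions, fewer cells of a type and less RNA per cell cannot be told apart.

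Scd2 encodes a desaturase isoform that in mice is prominent in brain and in other tissues outside the liver. Its level was 9.24 with amsacrine and 9.09 in the control of Δ122p53 cells. In p53-null cells it was 8.79 with amsacrine and 10.01 after irradiation, against 10.63 and 10.50 in the controls. In WT cells it was 12.23 with amsacrine, against 10.37 in the control. The WT amsacrine array was thus the highest and the p53-null amsacrine array the lowest of all 8, 3.44 apart on the log2 scale. These are the arrays whose responses chose the gene, so nothing is read from that range.

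The amsacrine difference of Scd2 was 0.15 ± 0.38 in Δ122p53 cells (log2, SE of the limma model), -1.77 ± 0.33 in p53-null cells and 1.86 ± 0.38 in WT cells. Expressed as folds, Scd2 was 3.42-fold lower with amsacrine in p53-null cells and 3.63-fold higher with amsacrine in WT cells. The WT response minus the p53-null response was 3.63 ± 0.50, the second largest of 7456 genes. Scd2 and Trim7 were the 2 genes (0.0268%) at least 2-fold lower with amsacrine in p53-null cells and at least 2-fold higher in WT cells. Trim7, detected on 3 arrays only, differed by -1.40 in p53-null cells and by 1.90 in WT cells, and these sizes rest in part on arrays without detection. Both responses chose Scd2, so nothing is read from its place. The Δ122p53 response minus the WT response was -1.71 ± 0.54 and the Δ122p53 response minus the p53-null response was 1.92 ± 0.50. Each contains a response that chose the gene and is given with no test.

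Genes that mark spleen cell types also differed with amsacrine on these arrays. Of 7 B cell markers with a probe, 6 were tested, and their mean level was 8.12 with amsacrine and 9.74 in the control of Δ122p53 cells, 8.64 in p53-null amsacrine cells against 10.63 and 10.55 in controls, and 8.36 with amsacrine against 10.42 in the control of WT cells. The 5 tested macrophage and monocyte markers averaged 5.69 and 5.59 in Δ122p53 cells, 7.34 in p53-null amsacrine cells against 8.73 and 8.61, and 7.28 in WT amsacrine cells against 9.49. Both lists were thus lower with amsacrine in p53-null and in WT cells. The 6 tested neutrophil markers averaged 9.998 with amsacrine and 10.32 in the control of Δ122p53 cells, 10.03 in p53-null amsacrine cells against 10.25 and 11.87, and 11.16 in WT amsacrine cells against 11.20. Their WT response minus p53-null response, the contrast that chose Scd2, had a median of 1.01. It was above 0 for 6 of 6, against 51.2% of all genes. The p53-null controls differed from each other by a median of 1.65 over the same 6 genes. Mitotic markers (5 tested) averaged 9.61 with amsacrine against 8.98 in Δ122p53 cells. In p53-null cells they averaged 6.28 against 7.33 and 7.47, and in WT cells 5.84 against 7.52. T cell markers (7 tested) averaged 8.43 against 8.96, 9.95 against 10.71 and 10.73, and 9.97 against 10.82, in the same order. Erythroid markers (7 tested) averaged 11.58 against 11.33, 7.14 against 7.82 and 7.37, and 8.0 against 8.23. Adipocyte markers were near background, with 2 of 7 tested and 0 or 1 detected on any array. The part of cell composition in the Scd2 differences was not tested.

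Scd1, the desaturase of liver and fat, ran from 10.48 to 12.0 over all arrays. It read 10.48 with amsacrine and 11.14 in the control of Δ122p53 cells. It read 11.94 with amsacrine and 10.59 after irradiation in p53-null cells, against 11.43 and 11.38 in their controls, and 12.0 with amsacrine against 11.49 in WT cells. The amsacrine difference was -0.67 ± 0.38 in Δ122p53 cells (adjusted p = 0.883), 0.54 ± 0.33 in p53-null cells (adjusted p = 0.452) and 0.50 ± 0.38 in WT cells (adjusted p = 0.511, limma). None passed the test. The WT response minus the p53-null response was -0.04 for Scd1, with a 95% interval of -1.26 to 1.19. The value for its paralogue Scd2 on the same arrays, 3.63, is the difference that chose Scd2. Nothing is therefore read from the gap between these paralogues.

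**Figure D1:**
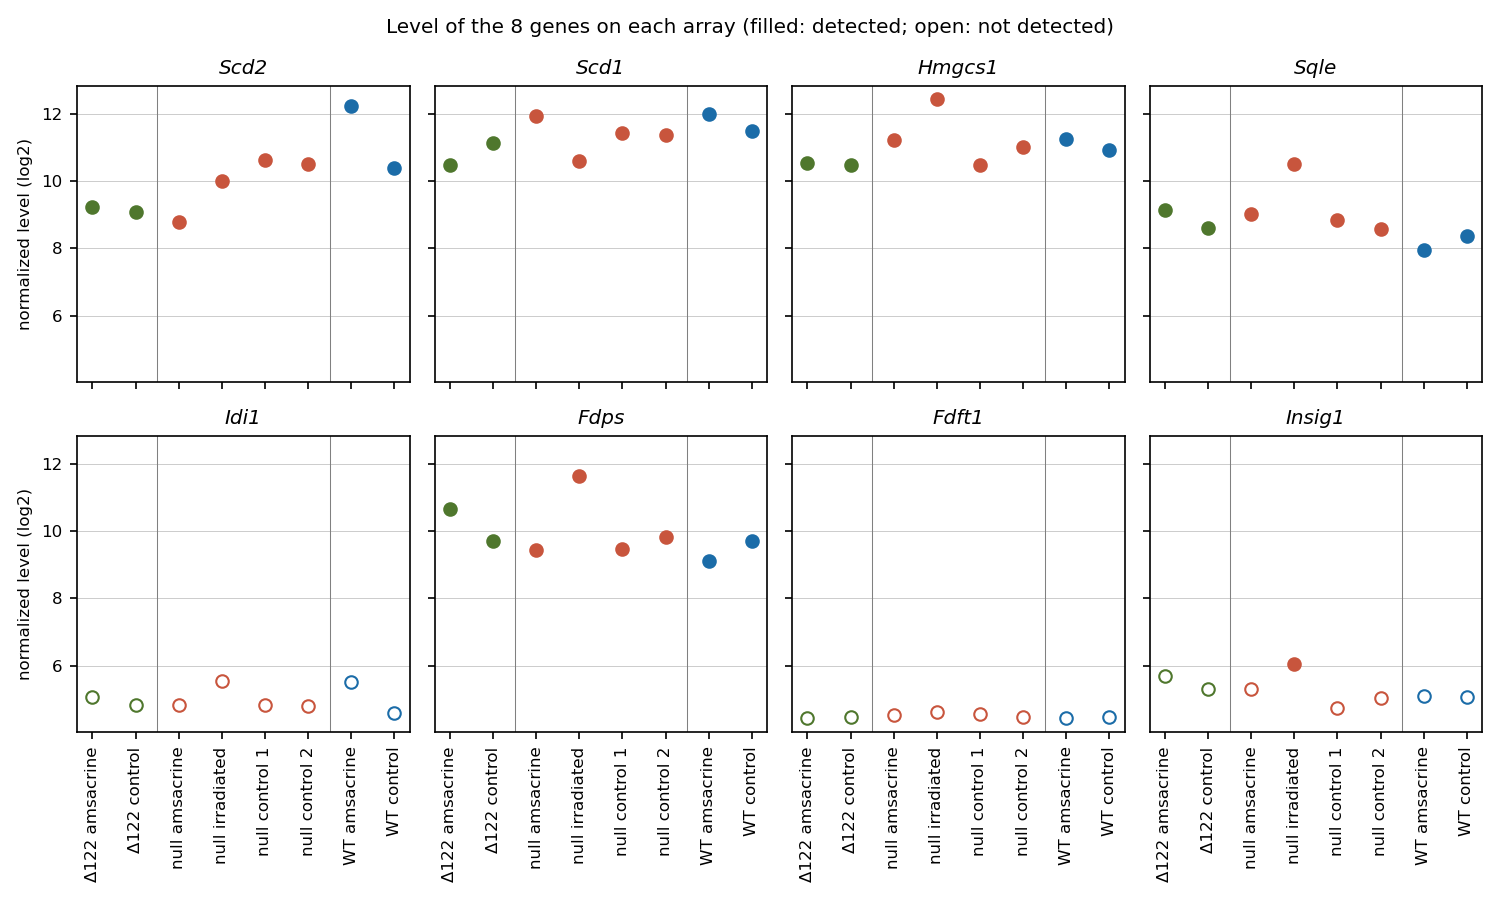
Normalized level (log2) of the 8 genes on each of the 8 arrays, 1 point per array, with filled points where the probe was detected; for genes with several probes the one with the highest mean is drawn. Scd2 is highest on the WT amsacrine array (12.23) and lowest on the p53-null amsacrine array (8.79), while Hmgcs1, Sqle, Fdps and Insig1 are highest on the p53-null irradiated array.

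The detected sterol enzymes had their highest levels on the irradiated p53-null array. Hmgcs1, which makes HMG-CoA for the step that statins block, was at 12.42 after irradiation, against 10.49 and 11.0 in the p53-null controls. Fdps, which makes farnesyl diphosphate, was at 11.62, against 9.48 and 9.83. Sqle, squalene epoxidase, was at 10.50, against 8.85 and 8.58. Each irradiated value lay above both control values and above all 7 other arrays.

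Relative to the control mean, Fdps was 3.92-fold higher in irradiated cells (log2 difference 1.97 ± 0.35, adjusted p = 0.184, limma), ranking 32 of 7456 genes from the top. Sqle was 3.43-fold higher (1.78 ± 0.34, adjusted p = 0.208, rank 41) and Hmgcs1 3.20-fold higher (1.68 ± 0.37, adjusted p = 0.224, rank 52). A second, dimmer Sqle probe was detected on the irradiated array alone, at 6.41. Insig1 was at 6.05 after irradiation, against 4.76 and 5.05 in controls where it was not detected, which gives at least 1.17-fold higher. It is given no test, because it was among the tested genes only through this array. The other 2 Insig1 probes were detected on no array.

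Scd1 did not share this direction. In irradiated p53-null cells its difference from controls was -0.81 ± 0.33 (adjusted p = 0.357, limma). For Scd2 the difference was -0.56 ± 0.33, given with no test, because these controls are also those of the p53-null amsacrine response that chose it. Of Scd1, Hmgcs1, Sqle and Fdps 0 passed the adjusted threshold of 0.05, as did 0 of all 7456 genes (0%). At an unadjusted p under 0.05 stood 3 of these members higher and 1 lower, beside 1037 of all genes (13.9%). At least 2-fold above each of the 2 controls were Hmgcs1, Sqle and Fdps but not Scd1, against 3.23% of all genes. The irradiated array was the highest of the 8 for the same 3, against 13.8% of all genes.

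The same array was the highest for most of the other sterol enzymes that were tested. Of 16 further genes of the mevalonate and sterol pathway, 13 had a probe and 9 were tested. The mean was higher in irradiated cells than in controls for 9 of the 9, against 53.6% of all genes, although Ebp was higher by 0.0050 and turned to -0.042 with cyclic loess and -0.0022 with the authors' deposited table. The 9 had a median difference of 0.83, against 0.04 over all genes, and 4 were at least 2-fold higher, against 5.53% of all genes. None passed the adjusted threshold. The irradiated array was the highest of the 8 for 8 of the 9. Lss was at 7.90 after irradiation against 6.13 and 6.44 in controls, a difference of 1.61 ± 0.34 (adjusted p = 0.222) that was 0.72 in the authors' deposited table, and was not detected on the other 5 arrays. Msmo1, which removes methyl groups from the sterol ring, was at 10.36 against 9.01 and 8.58, a difference of 1.56 ± 0.36 (adjusted p = 0.224, limma). The exception in rank was Ebp, a sterol isomerase, at 8.59 against 8.31 and 8.85.

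**Figure D2:**
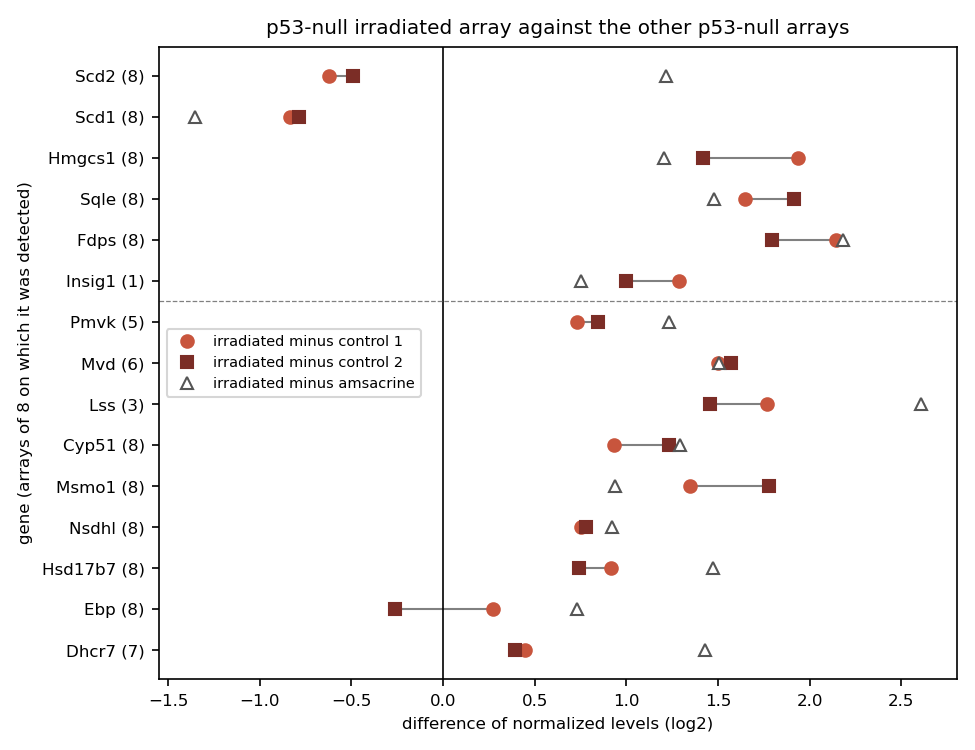
Level on the p53-null irradiated array minus that on control 1, control 2 and the amsacrine array of the same genotype (log2), for 6 members above the dashed line and 9 further sterol enzymes below it. The number after each gene is how many of the 8 arrays detected it, and differences from arrays without detection are not exact. Sterol enzymes other than Ebp lie right of 0 against all 3 arrays, and Scd1 lies left of 0 against all 3.

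Most genes around the pathway were closer to the controls. Srebf2, the SREBP2 gene, was higher by 0.41 in irradiated p53-null cells (adjusted p = 0.630), and Insig2, the second Insig gene, differed by -0.39 (adjusted p = 0.663, limma). The 6 tested genes of SREBP processing and sterol sensing had a median difference of 0.13 and a highest of 0.41. Among fatty acid genes, Acaca, the acetyl-CoA carboxylase that commits carbon to fatty acids, was higher by 1.34 ± 0.33 (adjusted p = 0.231), or 0.79 with the mean of its probes, and Fasn, fatty acid synthase, by 0.72 (adjusted p = 0.448, limma), with a median of 0.30 over the 9 tested. In cholesterol traffic, Stard4, a sterol carrier, was higher by 0.75 (adjusted p = 0.389), and Abcg1, which exports cholesterol, differed by -0.70 (adjusted p = 0.399, limma). The median of the 5 tested traffic genes was -0.19 and that of the 6 tested glycerolipid genes 0.28. Of the latter Plin2, a lipid droplet coat, was higher by 0.82 (adjusted p = 0.370, limma). The irradiated array was the highest of the 8 for 4 of 9 fatty acid genes, 2 of 6 glycerolipid genes and 1 of 5 traffic genes. It was the highest for 0 of 6 genes of SREBP processing and sterol sensing, against 13.8% of all genes.

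Marker levels on the irradiated array also differed from its controls. The 5 macrophage markers averaged 6.71 after irradiation against 8.73 and 8.61 in controls, and the 6 B cell markers 9.35 against 10.63 and 10.55. Mitotic markers averaged 7.33 after irradiation against 7.33 and 7.47. Neutrophil markers averaged 11.63 after irradiation, within the span of the controls at 10.25 and 11.87. The part of these shifts in the sterol gene differences was not tested, and with 1 irradiated array the treatment and that array cannot be told apart.

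With amsacrine Hmgcs1, Sqle and Fdps lay closer to their controls than after irradiation in p53-null cells, the genotype that had both treatments, and the 2 treatments were not tested against each other. In Δ122p53 cells 0 of the 5 members detected on all arrays and 0 of all genes passed the adjusted threshold (0%), while 0 of these members and 512 of all genes (6.87%) had an unadjusted p under 0.05. Of Scd1, Hmgcs1, Sqle and Fdps, 0 passed the adjusted threshold in p53-null cells, where 10 of all genes did (0.134%), and 0 had an unadjusted p under 0.05, beside 1285 of all genes (17.2%). In WT cells 0 of these 4 and 0 of all genes passed (0%), and 0 of the 4 had an unadjusted p under 0.05, beside 1467 of all genes (19.7%).

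Hmgcs1 was at 10.53 with amsacrine and 10.46 in the control of Δ122p53 cells, at 11.22 with amsacrine in p53-null cells against 10.49 and 11.0, and at 11.24 against 10.93 in WT cells. Each amsacrine value lay above its controls, and the fitted differences were 0.07 ± 0.43 in Δ122p53, 0.47 ± 0.37 in p53-null and 0.31 ± 0.43 in WT cells, none past the test (adjusted p of 0.567 to 1, limma). Sqle was at 9.13 with amsacrine and 8.60 in the control of Δ122p53 cells, at 9.02 against 8.85 and 8.58 in p53-null cells, and at 7.96 against 8.38 in WT cells. Its difference was 0.53 ± 0.39 in Δ122p53 cells (adjusted p = 0.988), 0.30 ± 0.34 in p53-null cells (adjusted p = 0.701) and -0.41 ± 0.39 in WT cells (adjusted p = 0.606, limma). WT was opposite in sign to both other genotypes, and none passed the test.

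Fdps was at 10.66 with amsacrine and 9.71 in the control of Δ122p53 cells. It was at 9.44 against 9.48 and 9.83 in p53-null cells, and at 9.12 with amsacrine against 9.71 in WT cells. The difference of 0.95 ± 0.40 in Δ122p53 cells (adjusted p = 0.749) was the largest amsacrine difference among the sterol members, beside -0.21 ± 0.35 in p53-null cells and -0.59 ± 0.40 in WT cells (adjusted p = 0.469, limma). Between genotypes the Fdps response differed by 1.54 ± 0.57 for Δ122p53 minus WT (adjusted p = 0.440) and by 1.16 ± 0.53 for Δ122p53 minus p53-null (adjusted p = 0.660, limma). Of Scd1, Hmgcs1, Sqle and Fdps 0 passed in either difference, as did 0 of all genes (0% in each), where 10.8% and 8.34% of genes had an unadjusted p under 0.05. Insig1 was below detection in all amsacrine and control cells and is given no difference.

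**Figure D3:**
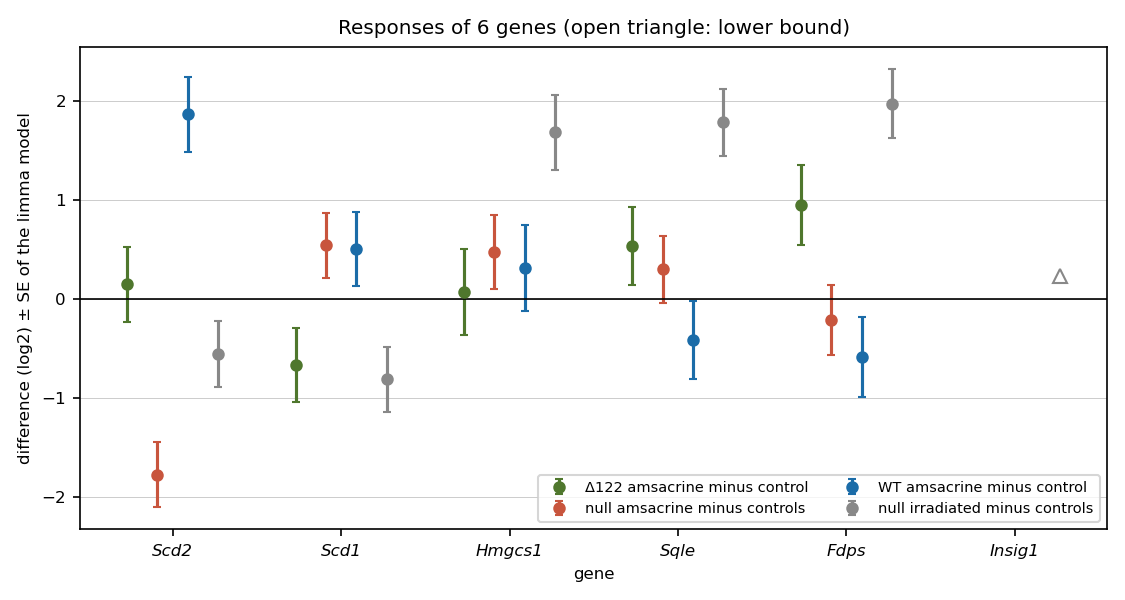
Difference between treated and control cells (log2, points) with the SE of the limma model (bars) for 6 genes, for amsacrine in Δ122p53, p53-null and WT cells and for irradiation in p53-null cells. Points are left out where neither side was detected, and the open triangle of Insig1 is a lower bound, since its controls were not detected. Irradiation stands above 1 for Hmgcs1, Sqle and Fdps, and amsacrine stands there for Scd2 in WT cells only among the points drawn.

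Of the 9 further sterol enzymes, 7 were detected with amsacrine and 6 in the control of Δ122p53 cells, 6 with amsacrine and 9 in each control of p53-null cells, and 7 with amsacrine and 8 in the control of WT cells. Their median difference was -0.20 in Δ122p53 cells, where 5 of 9 were lower, -0.44 in p53-null cells, where 7 of 9 were lower, and -0.44 in WT cells, where 8 of 9 were lower. With undetected sides set to their bound, or to 0 where neither side was detected, these medians became 0 in Δ122p53, -0.21 in p53-null and -0.31 in WT cells. Over all genes 49.5%, 48.7% and 47.3% were lower in these 3 genotypes, in the same order, and the medians lay between 0.0039 and 0.05. None of the 9 passed the test in any genotype. In WT cells the largest difference was in Hsd17b7, a reductase of late sterol synthesis, at 6.35 with amsacrine against 7.62 (-1.27 ± 0.38, adjusted p = 0.178), and in p53-null cells in Dhcr7, the last reductase before cholesterol, at 5.79, not detected, against 6.77 and 6.83 (adjusted p = 0.209, limma).

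With a single amsacrine effect fitted across the 3 genotypes, 0 of Scd1, Hmgcs1, Sqle and Fdps passed, against 154 genes (2.07%), and their differences lay between 0.022 and 0.30 (adjusted p of at least 0.403, limma). Dgat1, which makes triglyceride from diacylglycerol, was the 1 gene of the 5 lipid lists that rose in this fit, by 2.37 ± 0.38 (adjusted p = 0.0362, limma). It was at 10.09 with amsacrine and 8.95 in the control of Δ122p53 cells, at 10.12 against 7.55 and 7.69 in p53-null cells, and at 11.35 against 7.91 in WT cells, so amsacrine arrays lay above all control arrays. The call was lost without any 1 of the WT or p53-null arrays in the fit (adjusted p up to 0.381), with the authors' deposited table (0.0810) and without the detection filter (0.100). Apoe, a lipoprotein component, read lower with amsacrine in all 3 genotypes, the common difference being -0.91 ± 0.20 (adjusted p = 0.0655, limma). Macrophage markers averaged 5.69 with amsacrine against 5.59 in Δ122p53 cells, and were lower in p53-null and WT cells as given above. The part of cell composition in the Apoe response was not tested.

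**Figure D4:**
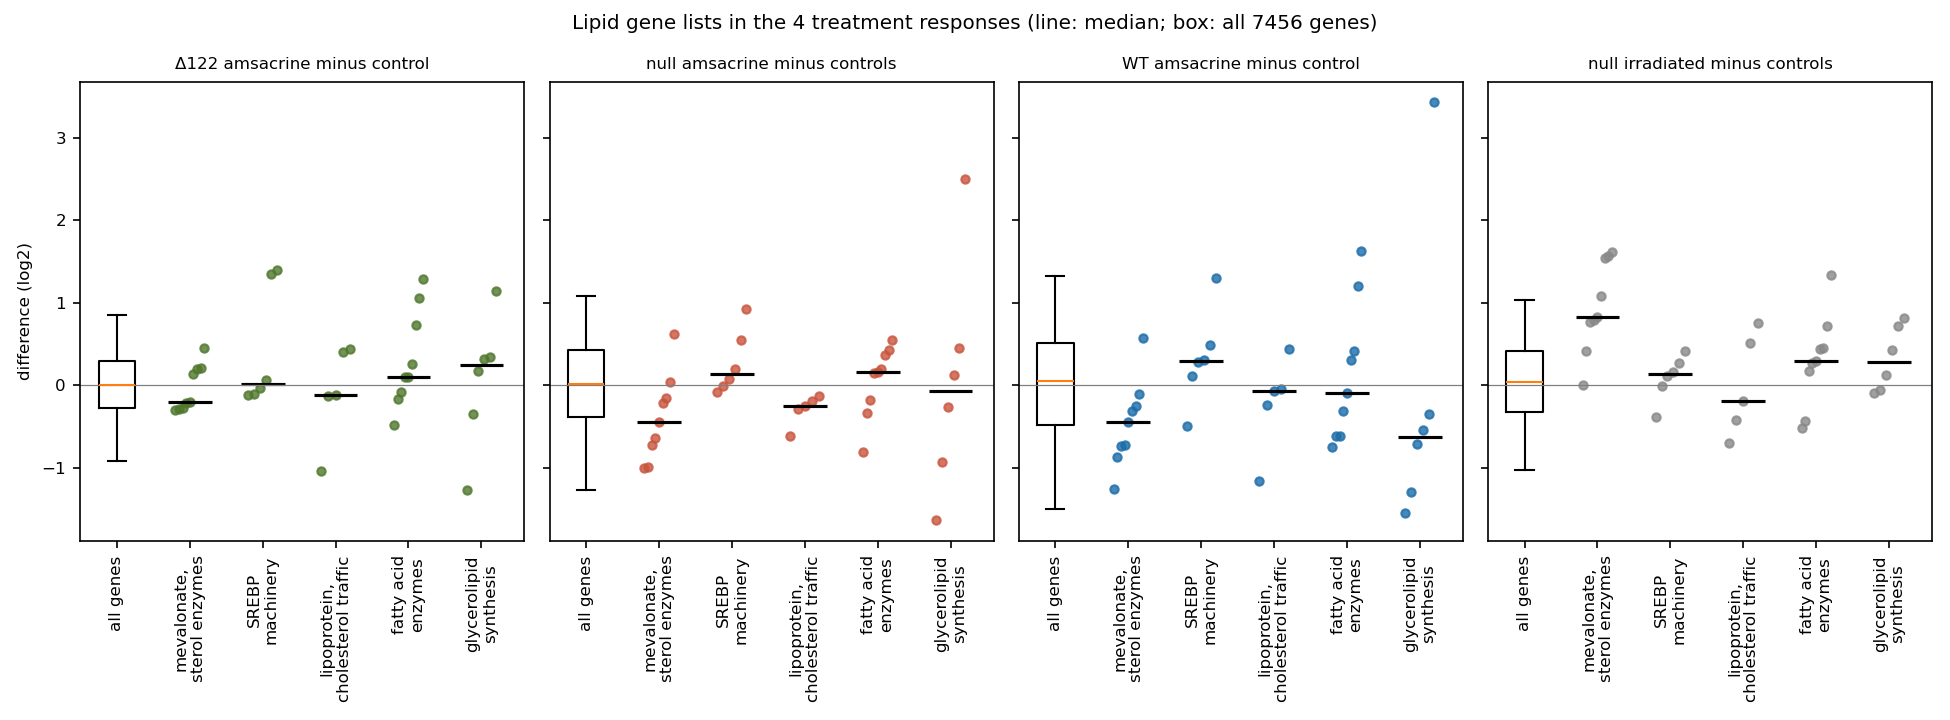
Differences (log2) of the tested genes of 5 lipid gene lists in the 4 treatment responses, 1 point per gene with the list median as a line; boxes give the quartiles of all 7456 genes and whiskers the 5th and 95th percentiles. Some points rest on arrays where the gene was not detected. Mevalonate and sterol enzymes have a median of 0.83 after irradiation and medians of -0.20, -0.44 and -0.44 with amsacrine in Δ122p53, p53-null and WT cells; the uppermost points with amsacrine in p53-null and WT cells are Dgat1.

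Genotypes were compared over control and amsacrine arrays together. Both Δ122p53 arrays (9.24 and 9.09) lay below both WT arrays (12.23 and 10.37) for Scd2. The difference of -2.14 ± 0.78 contains both arrays of the WT response that chose the gene and is given with no test. Without the WT amsacrine array it was -0.73, a value that still contains the WT control of that response. For Scd1 the difference was -0.93 ± 0.35 from WT cells (adjusted p = 0.121) and -0.80 ± 0.32 from p53-null cells (adjusted p = 0.198, limma), and the Δ122p53 arrays lay below all control and amsacrine arrays of both. Of Scd1, Hmgcs1, Sqle and Fdps 0 passed for Δ122p53 against WT, where 14.2% of all genes did, and 0 for Δ122p53 against p53-null cells, where 8.33% did. Without the Δ122p53 control array Scd1 (-1.53, adjusted p = 0.0230) and Fdps (1.44, adjusted p = 0.0428) passed against WT, and Scd1 (-1.46, adjusted p = 0.0319, limma) against p53-null cells. Between p53-null and WT cells 0 of these 4 members and 0 genes passed (0%, with 10.4% of genes at an unadjusted p under 0.05), and Sqle was higher in p53-null cells by 0.67 ± 0.28 (adjusted p = 0.471, limma).

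Of the lipid genes outside the members, 5 fell in Δ122p53 cells against WT. These were 2 of 5 tested traffic genes, 1 of 6 SREBP and sensing genes, 1 of 9 sterol enzymes and 1 of 9 fatty acid genes, beside the 14.2% of all genes that passed in either direction. Against p53-null cells 1 of 5 traffic genes and 1 of 9 fatty acid genes fell, beside 8.33% of all genes. Apart from the traffic genes these shares are near or below those of all genes, and all are counts of 1 or 2. Abcg1 was at 8.78 and 8.90 in Δ122p53 cells, against 10.46, 10.57 and 10.61 in p53-null cells and 10.61 and 10.17 in WT cells. It fell by 1.55 ± 0.25 against WT (adjusted p = 0.0145) and by 1.71 ± 0.23 against p53-null cells (adjusted p = 0.00874, limma). Nr1h3, the liver X receptor alpha that switches on Abcg1, was at 7.26 and, not detected, 5.91 in Δ122p53 cells, against 8.64 and 9.14 in WT cells (-2.30 ± 0.46, adjusted p = 0.0259, limma). Apoe fell by 1.32 ± 0.26 against WT (adjusted p = 0.0233), with 7.39 and 8.43 in Δ122p53 cells against 8.65 and 9.81 in WT cells.

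Mvd, mevalonate diphosphate decarboxylase, was the sterol enzyme that fell against WT. Both Δ122p53 arrays lacked detection and the WT arrays were at 6.60 and 7.04, at least 1.92-fold lower (adjusted p = 0.0296, limma). Elovl1, an elongase of very long fatty acids, was at 6.38 and 6.46 in Δ122p53 cells against 7.37 and 7.68 in WT cells, and fell by 1.11 ± 0.24 against WT (adjusted p = 0.0294) and by 1.29 ± 0.22 against p53-null cells (adjusted p = 0.0183, limma). With the mean of its probes the Elovl1 difference was 0.69 from WT cells (adjusted p = 0.144) and -0.24 from p53-null cells (adjusted p = 0.652, limma), so its probes disagree and both calls rest on the choice of probe. Against WT the Mvd and Elovl1 calls were lost when any 1 of the 7 arrays was left out (adjusted p of 0.0527 to 0.183 for Mvd and of 0.0501 to 0.173 for Elovl1). Nr1h3 lost its call without either WT array, the p53-null amsacrine array or the Δ122p53 control (adjusted p up to 0.152), and without the detection filter (0.0804). Apoe lost it without either WT array, the p53-null amsacrine array or the Δ122p53 amsacrine array (up to 0.160), and Abcg1 without either WT array (up to 0.120). Against p53-null cells Abcg1 lost its call without the p53-null amsacrine array (0.0711), and Elovl1 without that array, the first p53-null control or the Δ122p53 control (up to 0.135, limma). With the authors' deposited table Mvd (adjusted p = 0.0801), Nr1h3 (0.0517) and Elovl1 (0.0524, limma) missed the threshold against WT.

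Spleen cell markers differed strongly in the same contrast. Macrophage markers averaged 5.69 and 5.59 in Δ122p53 cells, with 2 and 1 of 5 detected, against 7.28 and 9.49 in WT cells. Erythroid markers averaged 11.58 and 11.33 in Δ122p53 cells against 8.0 and 8.23 in WT cells, mitotic markers 9.61 and 8.98 against 5.84 and 7.52, and T cell markers 8.43 and 8.96 against 9.97 and 10.82. Neutrophil markers averaged 9.998 and 10.32 in Δ122p53 cells against 11.16 and 11.20 in WT cells. The part of cell composition in the Abcg1, Nr1h3, Apoe, Mvd, Elovl1 and desaturase differences was not tested.

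The members did not follow 1 profile over the 8 arrays. Sqle and Fdps correlated at r = 0.89, or 0.61 over 7 arrays without the irradiated one, and Hmgcs1 and Sqle at 0.65 with it and -0.45 without it. Scd1 and Fdps ran opposite (-0.87, and -0.93 without the irradiated array). Scd2 correlated with Scd1 at 0.40. Among 4869 genes detected on all arrays, those with the highest r to Scd2 were Aldh4a1 (0.94), a mitochondrial enzyme of proline breakdown, Gpr180 (0.93), Ate1 (0.90), Abca7 (0.89) and Olfr1222 (0.88). The Scd2 profile includes the WT and p53-null amsacrine arrays that chose the gene, so nothing is read from this list. A high r does not mean a like size. Aldh4a1 ran from 7.30 to 9.73, Abca7 from 9.53 to 10.58 and Ate1 from 8.72 to 9.53. Olfr1222 ran from 6.51 to 7.16 and Gpr180 from 6.08 to 6.57. The sterol profile was the mean of the centred levels of Hmgcs1, Sqle, Fdps and Insig1, of which Insig1 was detected on the irradiated array alone. Its value was 1.36 on the irradiated array and -0.43 to 0.22 on the others. Genes with the highest r to it were Pno1 (0.98), a ribosome assembly factor, Cops6 (0.96), B3gntl1 (0.95), Cd3eap (0.94) and Usp10 (0.94). These r values rest largely on the irradiated array and were not computed without it. These coefficients describe 8 arrays normalized together, with the same culture protocol, and are given without a p.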

How the data were processed

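The authors deposited signal intensity values and detection p-values for 24613 probes on 8 arrays; per the file headers they are not normalized. They also deposited normalized values, treated here as log2 values and used as an alternative, made with lumi per the submitters' processing notes, with no version given. In R 4.3.3 with limma 3.58.1, neqc (offset 16) corrected the background, applied quantile normalization and took log2. Probes detected (p under 0.01) on at least 1 array were kept, with the probe of highest mean for each gene, which gave 7456 genes. Responses were tested in a limma model with 7 group means, whose 1 residual degree of freedom comes from the p53-null control pair, so that lone arrays are assumed to vary like it. Genotype differences and the common amsacrine effect came from an additive model on 7 arrays without irradiation. All tests were 2-sided, and p-values were adjusted over the 7456 genes by Benjamini-Hochberg (threshold 0.05). A run on simulated data with independent noise checked whether fitted differences returned those simulated. It cannot show whether lone arrays vary like the control pair. For Scd2 a test is used in the Δ122p53 amsacrine response only, because its responses in WT and p53-null cells, controls included, chose it. Insig1 is given no test, because it passed the detection filter through 1 array. A gene undetected on 1 side is given as at least N-fold, against the lowest detected signal. The members and lists were chosen with earlier results of these data known. Genes named are the 8 members, genes of the 5 lipid lists that passed or were among the 2 largest of their list, Ebp and Trim7, which fall outside this rule and were chosen after their values were seen, and the 5 genes of most similar profile. Cell type lists other than those described (endothelium and stroma) had 1 of 6 genes tested, at 7.59 to 9.81. Alternatives changed the background correction, normalization, detection filter, probe choice and arrays included, or used the authors' deposited table. Probe positions were not used here.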

Additional observations from a re-analysis of the deposited data

Results flagged for a closer look

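Of the 5 members detected on all 8 arrays, 2 had amsacrine responses of opposite sign in p53-null and WT cells on every array pair. The share of all genes that meet this rule was not computed, so nothing is read from the count. For Scd2 the WT response minus the p53-null response was 3.63, with 1.86 in WT cells and -1.77 in p53-null cells, and over the 9 alternative settings the difference lay between 3.32 and 3.68. For Sqle the WT response minus the p53-null response was -0.71 ± 0.52, with 0.30 in p53-null cells and -0.41 in WT cells. This difference ranked 1242 of 7456 genes by size, and it lay between -0.85 and -0.49 over the same number of settings. Neither difference was tested, because Scd2 was chosen by this contrast and the contrast was kept as a description for all members. Sqle was not chosen by it and is flagged here by its opposite signs alone. WT cells had 1 array for each treatment.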

How the results depend on the processing

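No paired analysis was possible because the groups share only replicate number 1. In the irradiation response all 9 alternatives kept the sign of Hmgcs1 (1.43 to 1.92), Sqle (1.48 to 1.92) and Fdps (1.80 to 2.13). The mevalonate list median lay between 0.58 and 0.92. The 7 alternatives that allowed a test called 0 members, and 0 of all genes. Other named differences in responses kept their sign, except Ebp (-0.26 to 0.27), but Lss ran from 0.72 to 1.76, Acaca from 0.79 to 1.42, Plin2 from 0.46 to 0.98, Fasn from 0.48 to 0.96 and Insig2 from -0.50 to -0.21; with amsacrine Hsd17b7 ran from -1.27 to -0.54 in WT and Dhcr7 from -1.10 to -0.32 in p53-null cells. Counts over all genes moved more, and the cause was not tested. With amsacrine in p53-null cells 10 genes passed, against 0 with normexp at offset 50, no background correction, cyclic loess, the authors' deposited table or no detection filter, 32 among genes detected on all 8 arrays and 63 with the mean of a gene's probes; in WT cells that mean gave 3 in place of 0. The common amsacrine effect gave 154 genes, against 42 with the authors' deposited table, 93 with no detection filter, 1256 without both Δ122p53 arrays and 0 to 1260 when single arrays were left out. Δ122p53 against WT gave 1061 genes, against 687, 654 and 47 to 980, and 0 members, against 2 without the Δ122p53 control. Δ122p53 against p53-null gave 621 genes, against 344, 398 and 72 to 613, and 0 members, against 1 without that control. Among tested differences, signs turned as follows, Elovl1 being a called difference and the others not. In the irradiation response Ebp gave -0.042 with cyclic loess and -0.0022 with the authors' deposited table, in place of 0.0050. With single arrays left out, the common amsacrine effect ran from -0.085 to 0.53 for Scd1, from -0.0060 to 0.40 for Sqle and from -0.38 to 0.28 for Fdps; without both Δ122p53 arrays it was -0.0042 for Sqle and -0.38 for Fdps, and with cyclic loess -0.015 for Fdps. Δ122p53 minus p53-null ran from -0.22 to 0.31 for Sqle, which gave -0.015 with the mean of probes. Elovl1 gave 0.69 for Δ122p53 minus WT with that mean, in place of -1.11. P53-null minus WT ran from -0.39 to 0.085 for Scd1, from -0.25 to 0.027 for Hmgcs1 and from -0.23 to 0.64 for Fdps.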
